A study of Homo sapiens with 6 samples.

Results

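The RUNX genes RUNX1, RUNX2 and RUNX3 and CBFB, the gene of their common partner, were examined for binding of the DEK protein in U937 cells. These 4 of 20163 protein-coding genes were chosen by name, and the peaks assigned to them were all DEK peaks that overlapped the annotated gene body or the 10 kb on either side. This gave 26 of the 15017 peaks of the first DEK precipitation (replicate 1), 104 of the 152779 peaks of the second (replicate 2) and 7 of the 4453 intervals shared by both. A shared interval is the stretch that a peak of replicate 1 and a peak of replicate 2 have in common, with an overlap of at least 1 bp.

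U937 is an established human cell line of myeloid origin that grows in suspension, and the labels list no treatment or genetic change in any group. Chromatin was fixed with formaldehyde and sheared by sonication, and the DNA bound to it was sequenced (ChIP-seq). The labels list 2 precipitations with an antibody against DEK, 2 with an antibody against H3K4me3 and 2 samples of input chromatin that met no antibody. The peak lists of the DEK and H3K4me3 precipitations were analysed here, and the input samples, which have no list of their own, were not. Peaks called in 1 list per precipitation allow no test of a difference between replicates, so no p-value is given, and all intervals cover counting error only.

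RUNX proteins are transcription factors that bind DNA through the Runt domain. Their partner CBFB does not bind DNA itself but raises the affinity of the Runt domain for its site. RUNX1 is required for the formation of blood stem cells and for myeloid maturation, RUNX2 for bone, and RUNX3 has roles in T cells, sensory neurons and gut epithelium. Each RUNX gene is transcribed from a distal promoter, known as P1, and a proximal promoter, known as P2, which give proteins with different starts. RUNX1 and CBFB are rearranged in acute myeloid leukemia, the disease in which DEK itself is known as part of a fusion protein. H3K4me3 is a histone mark of active promoters.

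The sequences that the results turn on are shown first, read from GRCh37, which has the sequence of hg19. The first 3 are the 250 bases before the outermost start site of a promoter, printed along the gene from 5′ to 3′. They are the distal promoter of RUNX1, which lay inside a replicate 1 peak, the proximal promoter of RUNX1, which was entered by a replicate 2 peak, and the distal promoter of RUNX3, which lay inside a replicate 2 peak. The other 3 are 300 bases around the middle of a shared interval in RUNX1, printed on the plus strand. They are the shared intervals that hold the RUNX letters in sequence of low copy number. Capitals mark TGTGGT or TGTGGC on either strand, called the RUNX letters here. They are forms of TGTGGY (Y is C or T), part of a motif that the authors matched to RUNX1. Other forms of the RUNX site were not searched.
RUNX1 distal promoter, chr21:36421642-36421891, minus strand: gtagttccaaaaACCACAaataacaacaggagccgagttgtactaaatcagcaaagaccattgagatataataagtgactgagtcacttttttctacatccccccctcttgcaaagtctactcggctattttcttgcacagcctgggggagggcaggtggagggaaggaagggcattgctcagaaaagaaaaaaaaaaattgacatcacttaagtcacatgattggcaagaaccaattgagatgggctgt
RUNX1 proximal promoter, chr21:36260988-36261237, minus strand: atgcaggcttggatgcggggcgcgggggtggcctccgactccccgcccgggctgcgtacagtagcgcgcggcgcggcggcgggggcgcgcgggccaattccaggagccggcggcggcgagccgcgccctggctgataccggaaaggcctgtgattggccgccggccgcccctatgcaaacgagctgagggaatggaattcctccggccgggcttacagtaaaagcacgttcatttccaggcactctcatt
RUNX3 distal promoter, chr1:25291502-25291751, minus strand: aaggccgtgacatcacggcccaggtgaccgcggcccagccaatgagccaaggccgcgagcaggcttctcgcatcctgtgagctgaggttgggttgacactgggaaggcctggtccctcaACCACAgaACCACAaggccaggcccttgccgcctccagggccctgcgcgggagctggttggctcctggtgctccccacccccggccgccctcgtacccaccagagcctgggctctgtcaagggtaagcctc
RUNX1 intron 2, shared interval, chr21:36398969-36399268, plus strand: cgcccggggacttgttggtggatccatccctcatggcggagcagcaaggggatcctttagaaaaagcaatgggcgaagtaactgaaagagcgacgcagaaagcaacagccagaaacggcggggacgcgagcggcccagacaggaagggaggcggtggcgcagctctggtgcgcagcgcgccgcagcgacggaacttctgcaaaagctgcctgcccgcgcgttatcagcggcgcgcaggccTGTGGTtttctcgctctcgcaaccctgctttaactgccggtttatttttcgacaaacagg
RUNX1 intron 5, shared interval, chr21:36237895-36238194, plus strand: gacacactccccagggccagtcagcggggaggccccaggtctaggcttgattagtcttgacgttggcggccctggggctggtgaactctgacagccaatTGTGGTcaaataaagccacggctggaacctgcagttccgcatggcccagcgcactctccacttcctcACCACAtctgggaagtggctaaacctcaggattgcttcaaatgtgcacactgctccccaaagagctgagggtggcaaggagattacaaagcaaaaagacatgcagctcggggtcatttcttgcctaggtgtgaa
RUNX1 intron 6, shared interval, chr21:36207240-36207539, plus strand: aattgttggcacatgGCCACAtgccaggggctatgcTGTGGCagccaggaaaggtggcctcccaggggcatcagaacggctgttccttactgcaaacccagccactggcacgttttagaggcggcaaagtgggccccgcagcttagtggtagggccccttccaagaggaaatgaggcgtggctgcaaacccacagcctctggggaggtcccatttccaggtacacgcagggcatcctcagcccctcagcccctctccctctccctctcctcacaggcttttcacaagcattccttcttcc

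The distal promoter of RUNX1 held 1 occurrence of the letters and its proximal promoter none. In the distal promoter of RUNX3 stood 2 occurrences separated by a pair of bases. Of the promoters not printed, the distal one of RUNX2 held 3, the most of all 7 promoters of the 4 genes. Its nearest DEK peak in either list was centred 24606 bp away. The CBFB promoter and the proximal promoter of RUNX3 held 1 each, and the proximal promoter of RUNX2 none. The GC content was 42.8% in the distal promoter of RUNX1, 69.2% in its proximal promoter and 67.6% in the distal promoter of RUNX3, where the median of 19812 protein-coding genes was 61.2%. The letters stood in the upstream stretch of 21.8% of those genes, and 3.13% held 2 or more occurrences. A match of these letters is a description of the sequence and no evidence of binding by a RUNX protein.

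The replicates differed in length of list, which bears on every count below. Replicate 2 had 10.2 times as many peaks as replicate 1, and its peaks were narrower (median width 697 bp against 1016 bp). Of the replicate 1 peaks 27.4% overlapped a peak of replicate 2, and of the replicate 2 peaks 2.9% overlapped one of replicate 1. The number of sequenced reads is not in the lists. The tags (reads) inside peaks summed to 988363 in replicate 1 and 4172422 in replicate 2. The false discovery rate that MACS gave was 100% for each of the 26 replicate 1 peaks of the 4 genes. How many of all replicate 1 peaks had this rate was not counted, so whether it sets these genes apart is not known here. The lists of H3K4me3 held 47523 and 29335 peaks, and 92.2% of the shorter list overlapped the longer one.

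Of the 4 genes only RUNX1 had DEK peaks at the same place in both precipitations. RUNX1 had 22 peaks in replicate 1, 61 in replicate 2 and 7 shared intervals. RUNX2 had 3, 12 and 0, RUNX3 had 1, 22 and 0, and CBFB had 0, 9 and 0. At least 1 replicate 1 peak was found in 32.6% of all protein-coding genes, at least 1 replicate 2 peak in 90.9% and at least 1 shared interval in 15.7%. For the 6794 genes with a body of at least 50 kb, a class that holds all 4 genes, these shares were 52.7%, 97.5% and 24.6%. A shared interval in 1 of 4 genes is thus close to the background of long genes. By raw number, 5 of 20163 genes had more shared intervals than RUNX1 and 6 had as many, but the annotated body of RUNX1, 1217 kb, is exceeded in length by only 42 genes. Per length RUNX1 had 0.566 shared intervals per 100 kb (95% Poisson interval 0.228 to 1.17), and 82.2% of the genes of at least 50 kb had a lower value. With a score of at least 100 in both lists, or with lists of equal length, 1 shared interval was left at RUNX1.

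Peaks were therefore counted per 100 kb of gene body with flanks. In replicate 1 the density was 1.78 peaks per 100 kb for RUNX1 (95% Poisson interval 1.11 to 2.69), 0.842 for RUNX2 (0.174 to 2.46) and 1.17 for RUNX3 (0.0296 to 6.51). CBFB had no replicate 1 peak (0 to 4.01). These intervals overlap, so the order of the 4 genes in replicate 1 is not resolved by these counts. Among genes of at least 50 kb, where the median was 0.292, 87.2% had a lower replicate 1 density than RUNX1, 74.6% a lower one than RUNX3 and 64.5% a lower one than RUNX2.

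In replicate 2 the order was another one. RUNX3 had 25.7 peaks per 100 kb (16.1 to 38.9), CBFB 9.77 (4.47 to 18.6), RUNX1 4.93 (3.77 to 6.34) and RUNX2 3.37 (1.74 to 5.88). The interval of RUNX3 lay above those of RUNX1 and RUNX2, while those of RUNX1, RUNX2 and CBFB overlapped one another and that of CBFB also overlapped RUNX3. The median of genes of at least 50 kb was 6.49 in this list. RUNX3 exceeded 97.6% of them and CBFB 68.1%, whereas RUNX1 and RUNX2 lay in the lower part, above 39.4% and 27.0%. The ratio of replicate 2 to replicate 1 peaks was 2.77 in RUNX1, 4 in RUNX2 and 22 in RUNX3, against 10.2 for the lists as a whole.

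**Figure D1:**
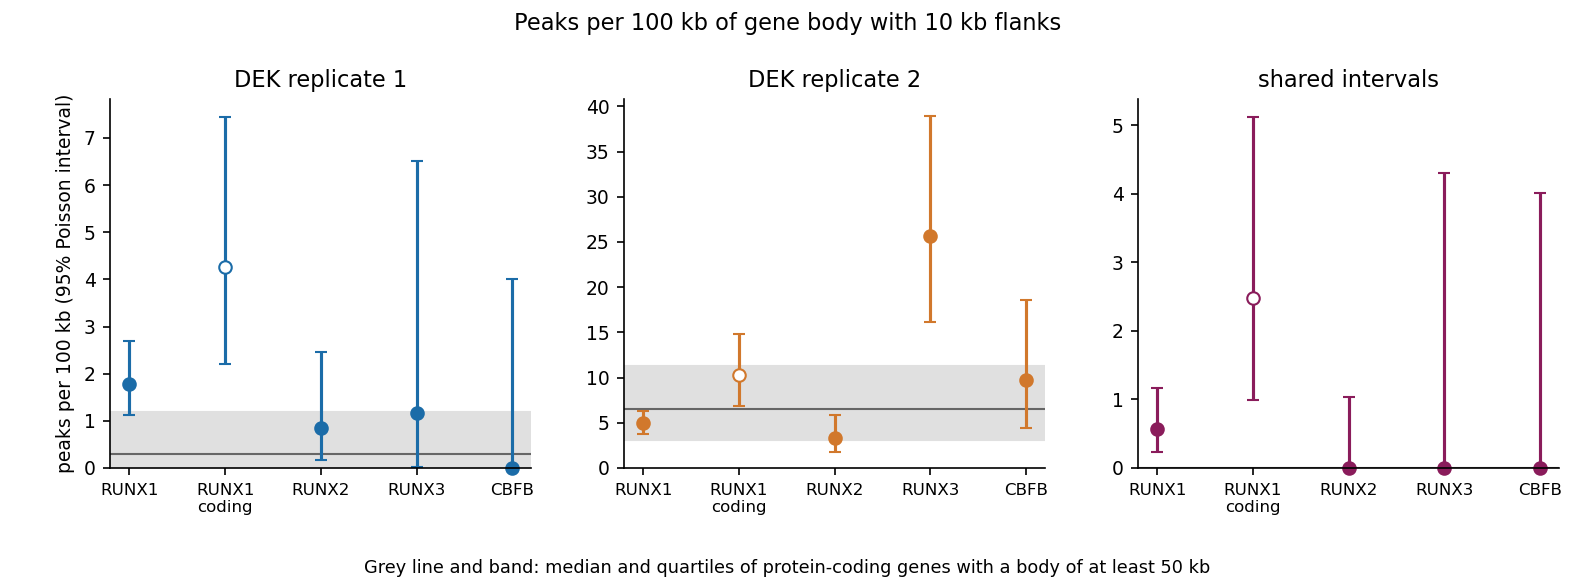
Peaks per 100 kb of gene body with 10 kb flanks (vertical axis) for each gene in DEK replicate 1, DEK replicate 2 and the shared intervals. Points are counts per length, bars are 95% exact Poisson intervals, the open point counts only the coding part of RUNX1, and the grey line and band give the median and quartiles of the 6794 protein-coding genes of at least 50 kb (all at 0 for shared intervals). RUNX3 stands at 25.7 in replicate 2 and at 1.17 in replicate 1, and only RUNX1 is above 0 among shared intervals.

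RUNX1 (chr21:36160098-37376965, minus strand) owes most of its annotated length to transcripts that begin far upstream of its basic protein-coding ones. The latter are called the coding transcripts here. The coding transcripts with 10 kb on either side cover 281.5 kb and end 10 kb beyond the distal promoter. In this part replicate 1 had 12 peaks, or 4.26 per 100 kb (2.20 to 7.45), and replicate 2 had 29, or 10.3 (6.90 to 14.8). In the other 955.3 kb replicate 1 had 10 peaks, or 1.05 per 100 kb (0.502 to 1.93), and replicate 2 had 32, or 3.35 (2.29 to 4.73). The coding part was the denser one in both precipitations, with intervals that did not overlap. This split was made after seeing the data, so the comparison is a description only. All 7 shared intervals were in the coding part, at 2.49 per 100 kb (1.00 to 5.12), and the 10 replicate 1 peaks and 32 replicate 2 peaks of the rest shared no base.

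In the coding part the density was lower between the promoters than downstream of them in both lists. Between the promoters replicate 1 had 4 peaks, or 2.49 per 100 kb (0.679 to 6.38), and replicate 2 had 12, or 7.47 (3.86 to 13.1). Downstream of the proximal promoter, where the Runt domain and the rest of the protein are encoded, replicate 1 had 6 peaks, or 5.95 per 100 kb (2.18 to 12.9), and replicate 2 had 13, or 12.9 (6.86 to 22). The intervals of both segments overlap in each list, so this difference is not resolved by the counts. Of the 7 shared intervals 5 lay downstream of the proximal promoter and 1 between the promoters, and the last crossed the 3′ end of the gene.

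**Figure D2:**
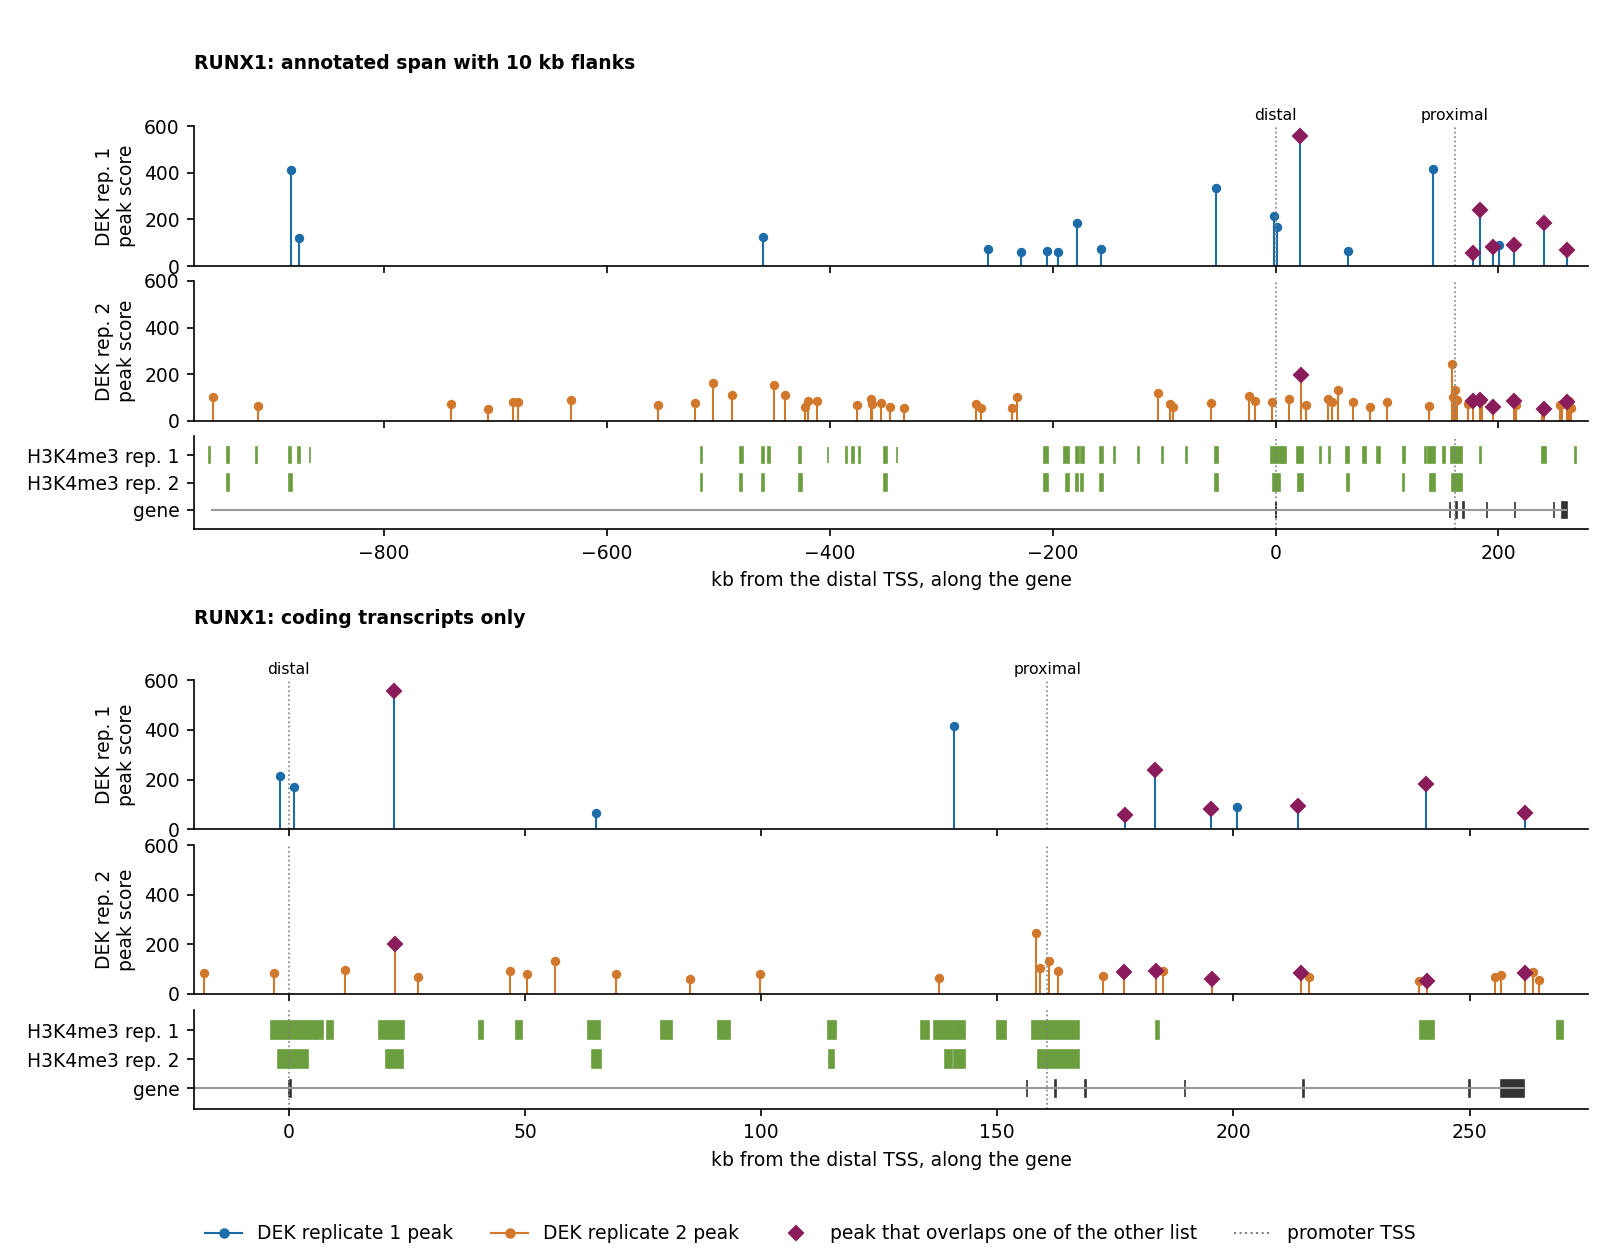
DEK peaks of RUNX1 by distance from the distal TSS in kb along the gene (horizontal axis) and by peak score, which is −log10 of the MACS p-value multiplied by 10 (vertical axis), for the annotated span (upper panels) and the coding part (lower panels). Circles are peaks of 1 list, diamonds are peaks that overlap a peak of the other list, green bars are H3K4me3 peaks, dark bars are exons and dotted lines are promoter start sites. All diamonds lie downstream of the distal promoter, and the highest, at 22.5 kb, has a score of 557 in replicate 1 and 199 in replicate 2.

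The shared interval with the highest score lay in intron 2 of RUNX1, 22.5 kb downstream of the distal promoter, at chr21:36398622-36399617. In replicate 1 its peak held 233 tags at 13.5-fold enrichment, and the score of 557 ranked 77 in that list. In replicate 2 its peak held 53 tags at 6.25-fold enrichment, and the score of 199 ranked 7271. The summits that MACS placed in the 2 peaks were 7 bp apart. By the lower of both scores this interval ranked 72 of 4453 shared intervals. It overlapped an H3K4me3 peak in both lists. RUNX1 is known to have an intronic enhancer downstream of its distal promoter that is active in blood stem cells, and whether this interval is that element was not tested.

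Intron 5 held the next pair of shared intervals. At chr21:36237644-36238447 the replicate 1 peak had 120 tags and a score of 239, and the replicate 2 peak had 39 tags and a score of 91.2. This interval overlapped an H3K4me3 peak of the longer list only. At chr21:36244361-36245016 the peaks had 43 and 22 tags with scores of 55.6 and 86.3, and their summits were 582 bp apart. Replicate 1 thus gave the first of this pair the higher score by a wide margin, while in replicate 2 their scores were close.

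Intron 6 also held a pair. At chr21:36206982-36207798 the scores were 92.0 in replicate 1 and 84.3 in replicate 2, with 74 and 36 tags, but the summits lay 1225 bp apart. At chr21:36226069-36226482 the scores were 79.5 and 57.8, with 22 and 21 tags. These intervals and those of intron 5 also lay in or within 1 kb of ENSG00000286153, a noncoding gene annotated on the opposite strand. Peak positions do not tell the genes apart.

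The remaining shared intervals lay toward the 3′ end. In intron 7, at chr21:36180175-36180893, the replicate 1 peak had 120 tags and a score of 184, and the replicate 2 peak had 27 tags and a score of 52.2, which only 4.28% of replicate 2 peaks fell below. This interval also overlapped an H3K4me3 peak of the longer list. At the end of the gene, at chr21:36159303-36160214, the scores were 66.9 and 82.9 with 74 and 31 tags. In this last interval and in the second of intron 6, the 150 bases on either side of the middle hold 24-base words that occur at least 1000 times in the genome, so reads there are harder to place. Such words were found in these 2 of the 7 shared intervals of RUNX1, or 28.6% (95% Clopper-Pearson interval 3.67% to 71.0%), and in 48.0% of all shared intervals. Without the 2 intervals RUNX1 had 5.

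**Figure D3:**
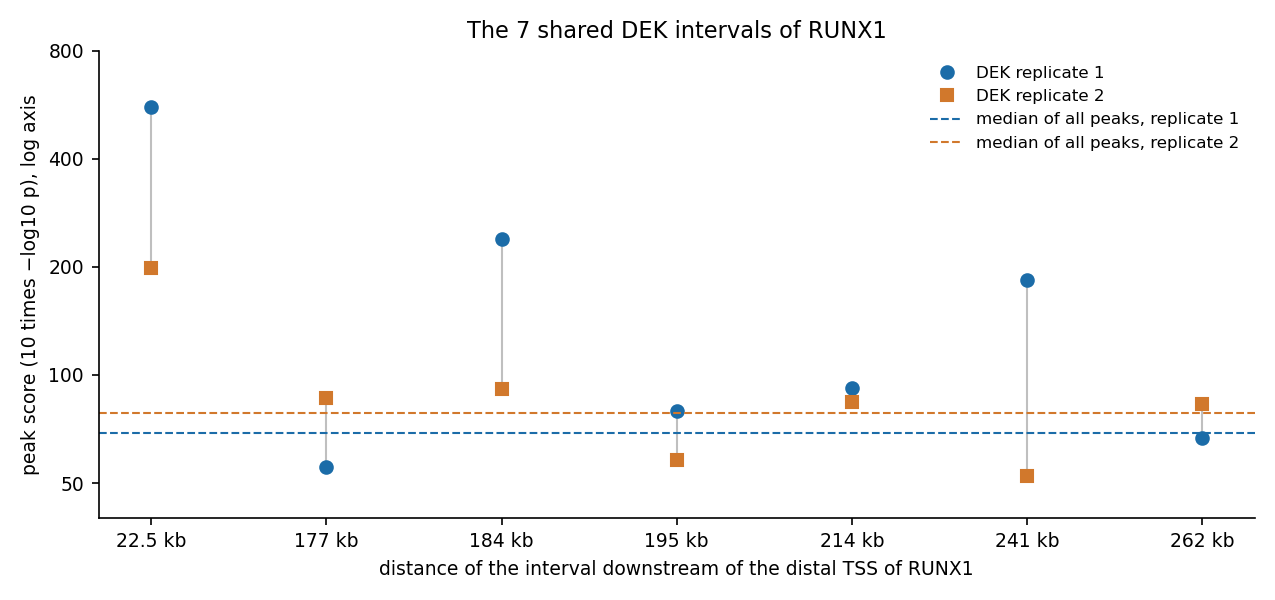
Peak score on a log axis (vertical) of the 7 shared DEK intervals of RUNX1 in replicate 1 (circles) and replicate 2 (squares), ordered by distance from the distal TSS (horizontal). Dashed lines are the median scores of all peaks, 68.8 in replicate 1 and 78.3 in replicate 2. Only the interval at 22.5 kb is above 100 in both lists, and 5 of the 7 are above the replicate 2 median in replicate 2.

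Strong replicate 1 peaks without a partner were also found at RUNX1. The peak at chr21:36280088-36281393, in intron 2 and 19.8 kb before the proximal promoter, had a score of 415 and the highest fold enrichment of the 26 peaks, 19.8. The peak at chr21:37304307-37305551, 883 kb upstream of the distal promoter, had a score of 410, and that at chr21:36474866-36475901, 53.7 kb upstream, had 336. All 3 overlapped H3K4me3 peaks of both lists. The gaps to the nearest replicate 2 peaks were 2216 bp, 28277 bp and 3160 bp. Of the 22 replicate 1 peaks of RUNX1 11 had a score of at least 100, as did 13 of its 61 replicate 2 peaks, where the whole lists had shares of 24.7% and 29.6%.

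Each of the RUNX1 promoters was called in 1 precipitation. At the distal promoter, replicate 1 had a peak at chr21:36418796-36422158 that covered the start site, with 217 tags, 6.69-fold enrichment and a score of 168. A further replicate 1 peak followed upstream at chr21:36422450-36424302, with 107 tags and a score of 214. Replicate 2 had no peak over the start site. Its nearest peak, chr21:36424441-36425215 with 24 tags and a score of 83.2, began 138 bp beyond the second replicate 1 peak.

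At the proximal promoter of RUNX1 the lists changed places. Replicate 2 had a peak over the start site at chr21:36260164-36261059 with 32 tags and a score of 131. It also had peaks on both sides, of which chr21:36262983-36263859, 2434 bp upstream, had the highest score of all replicate 2 peaks of RUNX1, 246. The nearest replicate 1 peak was centred 16489 bp from this start site and 14982 bp from another start site of the proximal promoter. H3K4me3 peaks covered both promoters in both lists.

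For RUNX3 (chr1:25226002-25291612, minus strand), replicate 2 had a peak at each promoter. The distal one, chr1:25291188-25292797, had 68 tags and a score of 185, and the proximal one, chr1:25256787-25258395, had 66 tags and a score of 192. H3K4me3 was called at the proximal promoter in both lists and at the distal promoter in the longer list only. The single replicate 1 peak of RUNX3, chr1:25278819-25280243, lay between the promoters with 57 tags and a score of 59.5, and the closest replicate 2 peak was 1280 bp away.

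Most of the replicate 2 peaks of RUNX3 were away from its promoters. Downstream of the proximal promoter 10 of the 22 were found, 6 lay between the promoters and 4 in the flanks. The 3 highest scores stood at the 3′ end: 328 at chr1:25222613-25225596 in the downstream flank, with 99 tags, and 237 and 202 in intron 6. None of these 3 overlapped an H3K4me3 peak. RUNX3 peaks of replicate 2 were wide, with a median of 1272 bp against 708 bp at RUNX1 and 697 bp in the list. Their fold enrichment was low, with a median of 3.93 against 5 at RUNX1 and 4.58 in the list. Of the 22 peaks 10 had a score of at least 100.

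RUNX2 (chr6:45295894-45632086, plus strand) differed between its promoters. At the proximal promoter replicate 2 had a peak, chr6:45390294-45392430, with 72 tags, 2.71-fold enrichment and a score of 124, centred 1048 bp downstream of the start site. At the distal promoter neither list had a peak, and the nearest ones were centred 24606 bp away in replicate 2 and 29147 bp in replicate 1. H3K4me3 covered the proximal promoter in both lists, and the H3K4me3 peaks nearest to the distal one were centred 17942 bp and 18015 bp away.

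The 3 replicate 1 peaks of RUNX2 were all intronic. The first, in intron 5 at chr6:45412852-45414265, had 111 tags and a score of 200. The others lay close together in intron 6, at chr6:45461698-45462946 with a score of 101 and at chr6:45463304-45464149 with a score of 176. All 3 overlapped H3K4me3 peaks of both lists. The 12 replicate 2 peaks of RUNX2 had 12 to 72 tags and scores of 60.3 to 159, and the smallest gap to a replicate 1 peak was 8008 bp. One of them lay in or within 1 kb of SUPT3H, a gene annotated on the opposite strand.

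CBFB (chr16:67062887-67134961, plus strand) had peaks in replicate 2 only. The one nearest its start, chr16:67061067-67062407, had 38 tags and a score of 130 and was centred 1282 bp upstream, and chr16:67064320-67064923, with 14 tags and a score of 52.8, lay 1569 bp downstream. Both overlapped H3K4me3 peaks of both lists. Of the other 7 peaks 3 lay further upstream, 3 in introns and 1, chr16:67142801-67144293 with 49 tags, at the start of the neighbouring gene PHAF1. The 9 scores ranged from 52.8 to 130. In 8 of the 9 the window around the middle held high-copy sequence. So did 34 of the 61 replicate 2 peaks of RUNX1 and 0 of the 22 of RUNX3. The share over all replicate 2 peaks was not counted, so whether these counts are unusual is not known here. The 48.0% of all shared intervals is the share of a different set and no background for them. The part of such sequence in the counts was not tested.

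**Figure D4:**
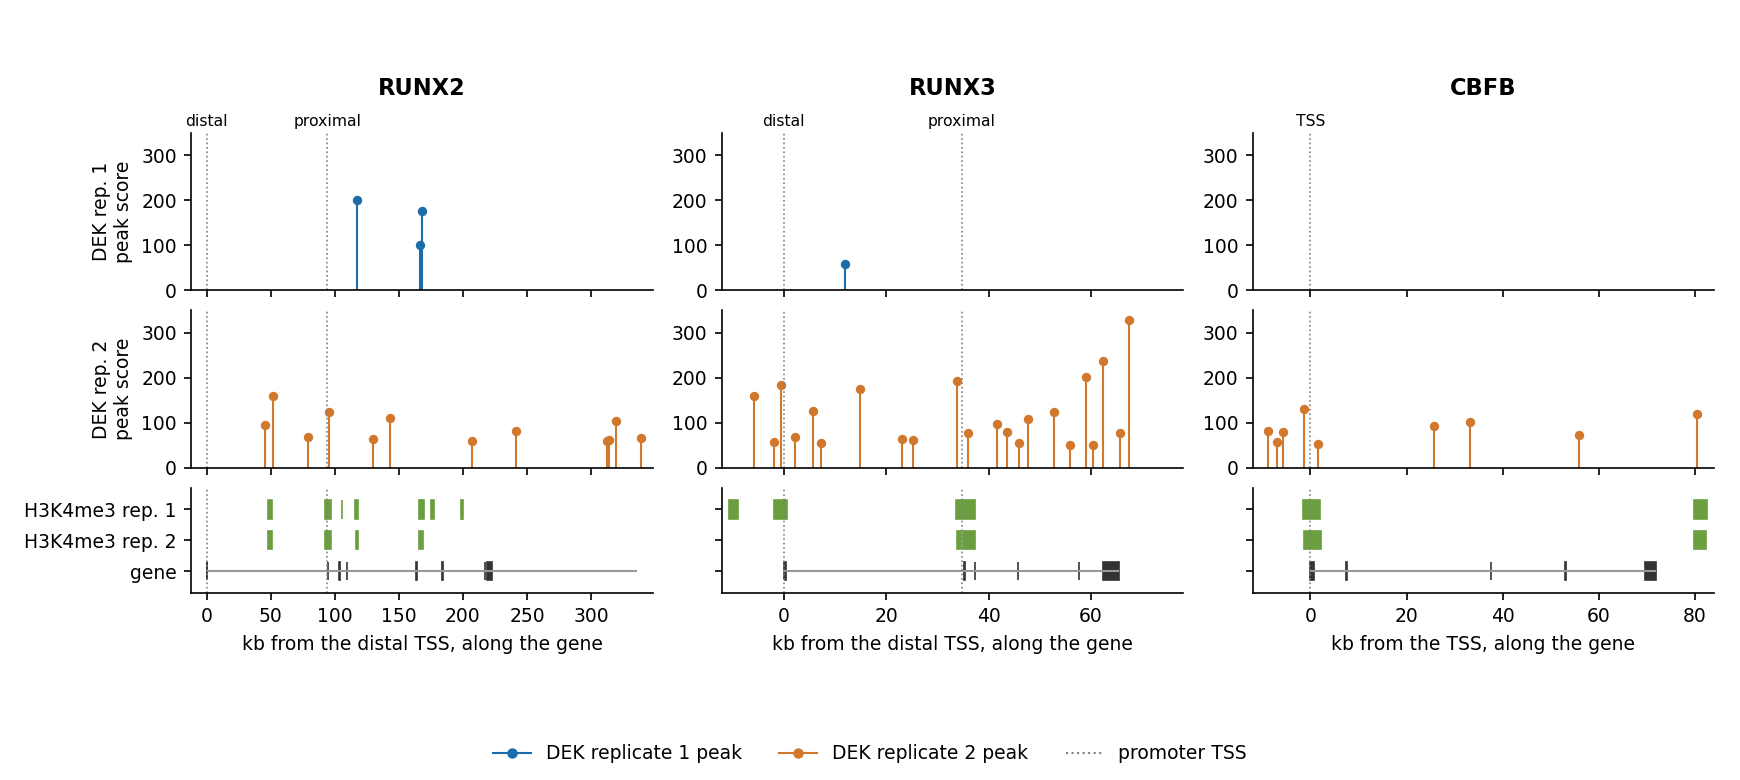
DEK peaks of RUNX2, RUNX3 and CBFB by distance from the distal (for CBFB the only) TSS in kb along the gene (horizontal axes) and by peak score (vertical axes). Circles are peaks of replicate 1 (upper panels) and replicate 2 (middle panels), green bars are H3K4me3 peaks, dark bars are exons and dotted lines are promoter start sites. RUNX3 has 22 peaks in replicate 2 and 1 in replicate 1, CBFB has none in replicate 1, and no peak of any of these genes overlaps one of the other list.

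The 4 genes have 7 promoters, 2 in each RUNX gene and 1 in CBFB. Measured from the middle of a peak, 0 of 7 had a replicate 1 peak within 1 kb, 3 of 7 had a replicate 2 peak (the proximal promoter of RUNX1 and both of RUNX3) and 0 had a shared interval. Counted by gene, 0, 2 and 0 of the 4 had such a peak, where the shares of all protein-coding genes were 5.86%, 45.2% and 3.31%. The middle is a strict measure for wide peaks: by the summit, replicate 1 reached 1 promoter, the distal one of RUNX1. Within 2 kb replicate 1 reached that promoter too, and replicate 2 reached 5, the added ones being the proximal promoter of RUNX2 and the promoter of CBFB.

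The nearest shared intervals beyond the flanks gave RUNX3 and CBFB none close by. For RUNX3 the nearest was chr1:25348923-25349881, 57.3 kb upstream and near MIR4425, with scores of 211 and 72.4. For CBFB it was chr16:66994849-66995703, 67.2 kb upstream and near CES3, with scores of 67.3 and 114. The nearest to RUNX2 was 767 kb away.

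H3K4me3 was the readout that the choice of genes did not use. Of the 26 replicate 1 peaks of the 4 genes 17 overlapped an H3K4me3 peak of either list, or 65.4% (95% Clopper-Pearson interval 44.3% to 82.8%), where 51.3% of all replicate 1 peaks did. Of the 104 replicate 2 peaks 19 did, or 18.3% (11.4% to 27.1%), against 11.0% of that list. Of the 7 shared intervals 3 did, or 42.9% (9.90% to 81.6%), against 50.3%. For overlap with either list the background lay inside the interval for replicate 1 and for the shared intervals and just below it for replicate 2. Counting only peaks that overlapped both H3K4me3 lists gave 14 of 26, or 53.8% (33.4% to 73.4%), against 32.9% in replicate 1. It gave 10 of 104, or 9.62% (4.71% to 17.0%), against 7.74% in replicate 2, and 1 of 7, or 14.3% (0.361% to 57.9%), against 33.7% for the shared intervals. By this count the background lay just below the interval for replicate 1 and inside it for replicate 2. Which list stood apart from its background thus changed with the H3K4me3 lists required. The replicate 1 peaks of the 4 genes had a median width of 1408 bp against 1016 bp in the list. In replicate 2 these medians were 733.5 bp and 697 bp. The part of width in the overlap was not tested. The 19 replicate 2 peaks in H3K4me3 peaks include those described above at the proximal promoters of RUNX1 and RUNX2, at both promoters of RUNX3 and at CBFB.

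Replicate 1 had the higher share in the whole lists, 51.3% against 11.0%, and in both parts of RUNX1. In the coding part of RUNX1 7 of 12 replicate 1 peaks and 10 of 29 replicate 2 peaks overlapped an H3K4me3 peak of either list. In the part upstream of it the counts were 7 of 10 and 0 of 32.

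**Figure D5:**
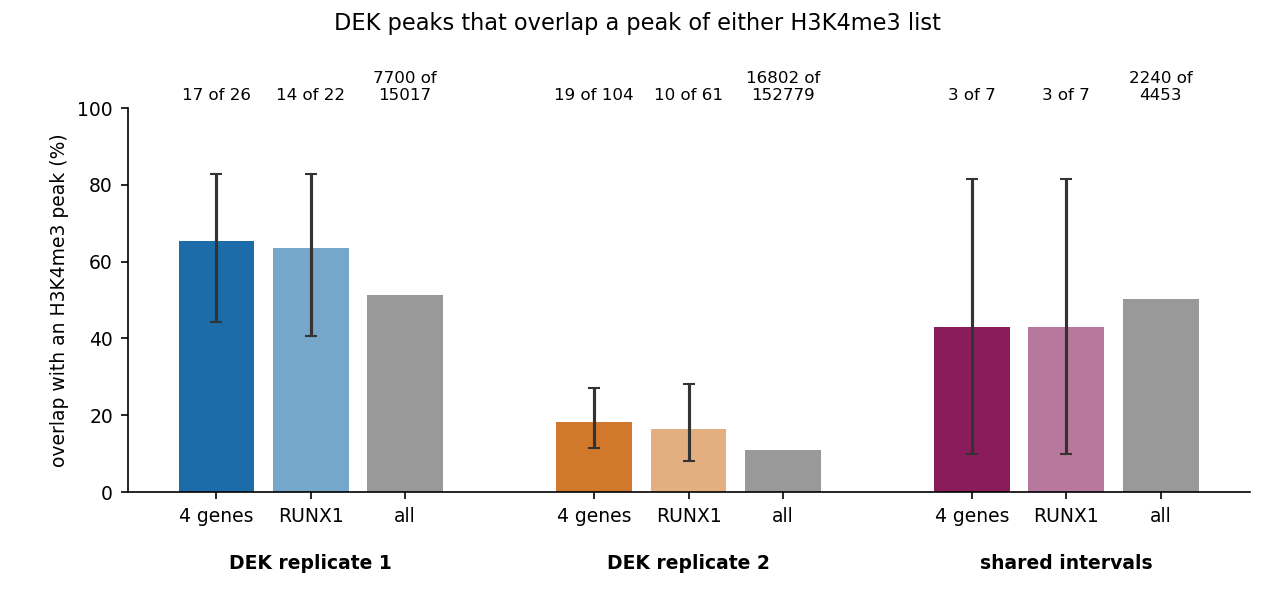
Share of DEK peaks in percent (vertical axis) that overlap a peak of either H3K4me3 list, for the 4 genes, for RUNX1 alone and for all peaks (grey), in each DEK list and among shared intervals. Bars start at 0, error bars are 95% Clopper-Pearson intervals and the counts stand above the bars. The share is 65.4% in replicate 1 and 18.3% in replicate 2 for the 4 genes, next to 51.3% and 11.0% for all peaks.

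The RUNX letters were no more than a description of the windows. In the 150 bases on either side of the middle they stood in 4 of the 7 shared intervals of RUNX1, or 57.1% (18.4% to 90.1%), where 36.4% of all shared intervals held them. Of the replicate 1 peaks of the 4 genes 9 of 26 held them, or 34.6% (17.2% to 55.7%), against 43.1% of that list. Of the replicate 2 peaks 39 of 104 did, or 37.5% (28.2% to 47.5%), against 34.1%. Every background lay inside the interval of the 4 genes. The letters GAGGAA, the core of sites of the myeloid factor PU.1, stood in 9 of 26, 18 of 104 and 2 of 7 windows, against 31.0%, 15.0% and 21.2%. The 3 windows printed above hold 1 or 2 occurrences of the RUNX letters, and each pair stands on opposite strands.

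Genes that work with RUNX proteins were counted in 4 lists chosen by name. At least 1 shared interval was found at 7 of 28 genes, where the share was 15.7% of all protein-coding genes and 24.6% of those of at least 50 kb. A replicate 1 peak was found at 15 of 28, against 32.6% and 52.7%, and a replicate 2 peak at 28 of 28, against 90.9% and 97.5%. The lists are short, and their counts are given as a description. The cofactors, which carry the repressing or activating functions (TLE, SIN3A, HDAC, EP300 and CREBBP among them), had a shared interval at 0 of 10. The transcription factors that bind beside RUNX1 in blood progenitors had one at 2 of 8, FLI1 with 3 intervals and LYL1 with 1. Of the genes fused to RUNX1 or CBFB in leukemia 2 of 4 had one, CBFA2T3 with 3 and ETV6 with 1. The CBFA2T3 intervals chr16:89043225-89044246 and chr16:89044293-89045820 lay in a single replicate 2 peak with 78 tags and a score of 229, so they are not separate sites in that list. Of the blood genes known as RUNX1 targets 3 of 6 had one, namely the receptor gene CSF1R, the cytokine gene IL3 and the repressor gene GFI1. The interval counted for IL3, a gene of 2.55 kb, was centred 9950 bp from the start site and thus lay in the flank.

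CBFA2T3, which encodes a corepressor of the family fused to RUNX1, was the 1 gene of the 28 with a shared interval within 1 kb of a start site, where 3.31% of all protein-coding genes had one. This interval, chr16:89043225-89044246, was centred 120 bp from the start site with scores of 54.7 and 229, and it overlapped H3K4me3 peaks of both lists. The highest scores at LYL1 were 220 and 358, at chr19:13212982-13217321, and those at CSF1R were 403 and 125, at chr5:149461203-149462195. At FLI1 the density over the gene body with flanks was 4.09 replicate 1 peaks per 100 kb and 13.6 replicate 2 peaks. By this same measure RUNX1 had 1.78 and 4.93. Its coding part alone, a span chosen after seeing the data, had 4.26 and 10.3.

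The genes whose peak density was most like that of RUNX1 were ranked among 3665 protein-coding genes with a body of at least 100 kb. Likeness was the Euclidean distance between the log2 densities of replicates 1 and 2, with 0.1 peaks per 100 kb added. The 5 nearest were ATP8B4, ALPK2, PHF14, ENSG00000285943 and SYT17, at distances from 0.0290 to 0.0940. PHF14 and ENSG00000285943 had 2 shared intervals each, or 0.925 and 1.15 per 100 kb, above the 0.566 per 100 kb of RUNX1, and the other 3 genes had 0.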

How the data were processed

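DEK and H3K4me3 ChIP-seq peak lists of U937 cells were used, with 2 lists of each, 1 per precipitation. Per the labels and methods, the authors placed reads on hg19 with Bowtie2 and ran MACS 1.4.1 on each precipitation separately. Chromatin that was not precipitated served as their negative control. The deposited DEK lists hold for every peak a raw tag count as deposited by the authors. The score the authors deposited is −log10 of the MACS p-value multiplied by 10. The deposited fold enrichment is a ratio over the local background of MACS, and the false discovery rate was deposited as a percent. The deposited H3K4me3 lists hold positions only, and whether their starts count from 0 or 1 is not given in the sources used here. Total reads are not in the lists, so depth is unknown here, and reads without molecular identifiers are not independent molecules.

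Genes, promoters and introns were taken from GENCODE release 44 on GRCh37; another annotation could move a start site. Introns were numbered along 1 coding transcript per gene that begins at the distal promoter. Start sites of basic protein-coding transcripts were grouped by start codon into distal and proximal promoters, and distances were measured from the middle of a peak. Counts have exact 95% Poisson intervals and shares exact 95% Clopper-Pearson intervals, also where the count was 0. Sequence was read in windows of 150 bases on either side of a middle, and copy number was counted over 24-base words. RUNX1 was also counted over its coding part alone, an alternative added after seeing the data.

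Genes named are the 4 members, genes in or within 1 kb of their peaks, genes of the 4 pathway lists with a shared interval and the 5 genes most like RUNX1. CBFA2T3 is named as the gene with a shared interval within 1 kb of a start site. LYL1, FLI1, ETV6, CSF1R, IL3 and GFI1 and the strongest peaks of each gene were named after their values were seen. The members and the lists were chosen with earlier results of these data known. The software was SciPy 1.17.1, pandas 2.3.3 and NumPy 2.4.6 in Python 3.11.15, with Matplotlib 3.10.9 for plots, and 5 of 5 checks on simulated data passed.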

Additional observations from a re-analysis of the deposited data

How the results depend on the processing

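Of 90 alternatives of 19 results, 61 kept the value (densities within their counting interval, counts within 1.5 times) and 29 moved it. Some of the 61 could not have moved, since a stricter rule cannot raise a count of 0. Requiring a score of at least 100 lowered the density of RUNX1 to 0.889 peaks per 100 kb in replicate 1 and 1.05 in replicate 2 and left 1 shared interval at RUNX1. It gave 1.12 at RUNX2, 11.7 at RUNX3 and 3.26 at CBFB in replicate 2, and 0 at RUNX3 in replicate 1. Cutting replicate 2 to the 15017 peaks of highest score gave 0.323 per 100 kb at RUNX1 and 1 shared interval there, with 0.281 at RUNX2, 8.18 at RUNX3 and 0 at CBFB. Over the coding part of RUNX1 alone the densities were 4.26 and 10.3. Leaving out either DEK precipitation gave 22 to 61 peaks at RUNX1, 3 to 12 at RUNX2, 1 to 22 at RUNX3 and 0 to 9 at CBFB in place of shared intervals, and 0 to 3 promoters with a peak within 1 kb. Promoters reached by replicate 1 were 1 within 2 kb and 1 by the summit, and by replicate 2 they were 5 within 2 kb. Overlap with both H3K4me3 lists held for 10 replicate 2 peaks and 1 shared interval, and leaving out either H3K4me3 list gave 11 to 18 and 1 to 3. RUNX2, RUNX3 and CBFB also had 0 shared intervals with peaks within 500 bp of each other and with flanks of 25 kb. The other alternatives run on both DEK lists were stricter and could not raise a count of 0, so they say nothing more. Where the overlap had to reach 50% of both peaks, RUNX1 had 5 shared intervals, and with peaks within 500 bp it had 10. The causes were not tested. The share in soft-masked repeats was not run because the reference is not soft-masked, and the count of 24-base words was added in its place after seeing the data. No paired analysis was possible because each precipitation has 1 peak list and no test was run. The false discovery rate of 100% at the replicate 1 peaks of the 4 genes limits what that list shows alone. The lengths of the lists limit what either shows alone.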
